A study of Sus scrofa with 10 samples.

Results

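Expression of genes for secreted growth signals and their handling at the cell surface was followed in porcine fetal fibroblasts sorted for SSEA-1: the fibroblast growth factors FGF2 and FGF7, the binding protein IGFBP5, the receptor IGF2R and the cytokine IL6. They were taken as all probe sets that the platform annotation assigns to one of these symbols alone, which gave 7 of the 24123 probe sets on the array, and 5 of 6765 annotated genes. FGF2 and FGF7 had 2 probe sets each and the other 3 genes had 1 each. The genes were picked with their differences between the fractions of these same arrays already known, so those differences are given as a description, with a standard error (SE) and no p-value.

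The fibroblasts came from fetal tissue without the head at fetal day 24, from Danish Landrace/Yorkshire x Duroc crosses. They were grown in DMEM with 10% FCS on 0.1% gelatin, then divided on magnetic beads by binding of anti-SSEA-1, which recognises the Lewis X sugar chain on several embryonic and stem cell types. The SSEA1+ and the SSEA1- fraction gave 5 RNA samples each, numbered 1 to 5 in both, with 1 Affymetrix porcine array per sample. All 10 samples share breed, age, culture and passage through the sort, unsorted cells are not among them, and the series text calls the replicates biological without saying whether animals or cultures differed, so errors measure the spread between these samples only. The series title speaks of 1 cell line.

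Fibroblast growth factors bind receptor tyrosine kinases together with heparan sulfate and signal through the adaptors FRS2 and GRB2 to the ERK kinases. FGF2 leaves cells without a classical signal peptide and is widely used to keep fibroblasts and stem cells dividing, whereas FGF7, or keratinocyte growth factor, is secreted by mesenchymal cells and acts on the FGFR2b receptor of epithelia. IGFBP5 binds insulin-like growth factors and the extracellular matrix and sets how much factor reaches the IGF1 receptor. IGF2R, the cation-independent mannose 6-phosphate receptor, takes up IGF2 for degradation and carries lysosomal enzymes from the Golgi, and IL6 is an inflammatory cytokine of stromal cells that signals through gp130, JAK kinases and STAT3.

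Values are log2 signals per probe set. As background level served the value of 0.352 that 95% of the readings of 23 controls without a matching sequence stayed under. In keeping with the label, 10 of 10 measured fibroblast markers were above background on all arrays. Their summed log2 signal overlapped, from 67.7 to 70.1 in both fractions, but single markers differed: the collagen gene COL1A2 rose from 4.94 ± 0.32 to 6.13 ± 0.15 (SD, n = 5 each; limma adjusted p = 0.000434), by more than any of the 5 genes described. With the replicate number as a block THY1 also passed, 0.34 higher at an adjusted p of 0.0146, and FAP, at a difference of -0.50, at 0.00433. Markers of other cell types were mixed. Of 7 endothelial markers CDH5 and TEK were below background on all arrays and 4 were above it on all, at means under 1; of 5 blood markers PTPRC, CD163 and SPI1 were below it on all arrays, while the globin gene HBB read 4.38 against 4.54. The neural MAP2 read 3.04 against 3.08 and the muscle gene DES 7.20 against 6.92, and no endothelial, blood, neural or muscle marker passed. None of the 7 epithelial markers passed limma's threshold of an adjusted p under 0.05. Of them 4 had an unadjusted p under 0.05, where 23.8% of all genes had one, and 5 of 7 read higher in the positive fraction. The other 2 read lower, KRT8, the brightest, at 5.42 against 5.47 and KRT18 at 1.45 against 1.54. KRT19 passed with the replicate block, 0.40 higher in 5 of 5 pairs at an adjusted p of 0.0272. EPCAM read 0.44 against 0.20 and was above background on 5 of the 10 arrays. The summed log2 signal of the list ran from 9.09 to 12.2 in the positive and from 7.93 to 12.3 in the negative arrays. The part of these markers in the results below was not tested. In such bulk samples fewer cells that make a transcript and less transcript per cell cannot be told apart.

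Of 5 technical array measures, 3 separated the fractions completely, all from spiked controls. The poly-A controls, bacterial RNAs spiked into the sample RNA, stood at -3.20 ± 0.32 relative to the hybridisation controls in the positive and at -4.02 ± 0.25 in the negative fraction (log2, SD, n = 5 each). The difference was 0.82; permuting the arrays exactly gave a two-sided p of 0.00794, which no split of 5 and 5 can go below, and 0.0132 after Benjamini-Hochberg adjustment over the 5 measures. The hybridisation controls used as reference differed too, at 6.90 ± 0.16 against 6.48 ± 0.16, as did the poly-A controls without a reference, at 3.71 ± 0.48 against 2.46 ± 0.40 (SD, n = 5 each), both with the same exact permutation p. The 3′ to 5′ differences of GAPDH and actin, a sign of RNA integrity, overlapped between the fractions, with exact permutation p = 0.151 and 0.302.

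IGFBP5 and FGF2 read higher in the SSEA-1 positive fraction and IL6 read lower, each in 5 of 5 pairs of the same replicate number, as 22.5% of all probe sets did in one direction or the other. IGFBP5 was 1.59-fold and FGF2 1.56-fold higher, and IL6 was 1.46-fold lower. FGF7 read lower and IGF2R higher by smaller amounts. These are the contrasts the genes were chosen on: 3 of the 7 probe sets passed limma's threshold, 2 higher and 1 lower, where 6.2% of all probe sets passed, 2.72% higher and 3.48% lower, and nothing is read from that count. With the replicate block the members gave the same counts, where 11.7% of all probe sets passed, 5.17% higher and 6.57% lower.

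**Figure D1:**
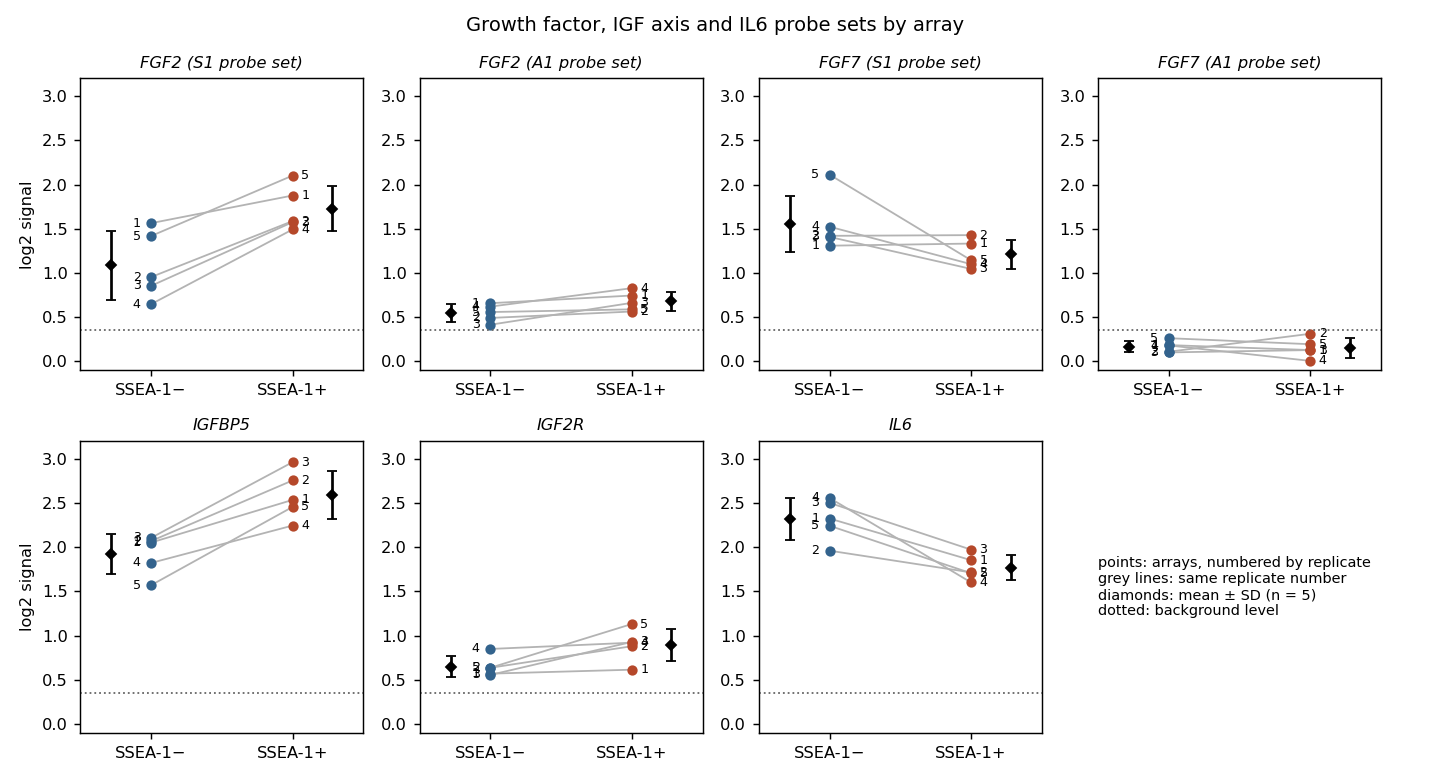
Log2 signal of each of the 7 probe sets (y axis) in the SSEA-1 negative (blue) and positive (red) arrays, with grey lines joining arrays of the same replicate number, diamonds for mean ± SD (n = 5) and a dotted line at the background level of 0.352. IGFBP5 is the one probe set whose fractions do not overlap, and the A1 probe set of FGF7 lies below the dotted line on every array.

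Of the ligands, FGF2 was read by 2 probe sets. On the brighter one, Ssc.17772.1.S1_at, the log2 signals of the positive arrays of replicates 1 to 5 were 1.88, 1.59, 1.58, 1.49 and 2.10. The negative arrays read 1.56, 0.95, 0.85, 0.65 and 1.42. Of these, replicates 2, 3 and 4 were within 1 log2 unit of background, which limits how well the size of the difference can be read. The fractions overlapped through negative replicate 1 alone, which lay above the lowest positive array, and both fractions had their highest arrays in replicates 1 and 5 and their lowest in replicate 4. The means were 1.73 ± 0.26 and 1.09 ± 0.39 (SD, n = 5 each), a difference of 0.64 ± 0.17 (SE), and the differences within pairs ran from 0.31 to 0.85. Because the fractions of a replicate moved together, the SE of the FGF2 difference was 2.06 times larger without the replicate number as a block than with it, at 0.083.

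The other FGF2 probe set, Ssc.17772.1.A1_at, was dimmer. It read 0.74, 0.56, 0.66, 0.83 and 0.59 in the positive and 0.66, 0.49, 0.41, 0.62 and 0.56 in the negative arrays, all above background. It too read higher in every pair, but its fractions overlapped widely and its difference was 0.13 ± 0.08 (SE). The size of the FGF2 difference therefore rests on 1 of its 2 probe sets, and the dimmer one did not pass the threshold.

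FGF7 gave a less uniform pattern. Its brighter probe set, Ssc.15923.1.S1_at, read 1.33, 1.43, 1.05, 1.10 and 1.14 in the positive arrays and 1.31, 1.42, 1.41, 1.52 and 2.11 in the negative arrays. In replicates 1 and 2 the fractions were level, at differences of 0.02 and 0.01, while in replicates 3, 4 and 5 the positive array was lower by -0.36, -0.42 and -0.97. The means were 1.21 ± 0.16 and 1.55 ± 0.32 (SD, n = 5 each), and the difference of -0.34 ± 0.14 (SE) did not pass. Negative replicate 5 stood apart from the other 4 negative arrays, and without it the difference was -0.20 ± 0.09 (SE). The second probe set, Ssc.15923.1.A1_at, stayed between 0.01 and 0.31, below background on all 10 arrays, and bears on no difference.

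IGFBP5, which stores and presents IGFs in the matrix, was read by Ssc.15800.1.S1_at. The positive arrays of replicates 1 to 5 gave 2.54, 2.76, 2.96, 2.25 and 2.46, and the negative arrays gave 2.05, 2.07, 2.11, 1.82 and 1.57. The lowest positive array lay above the highest negative one, and the order of the replicates was similar in both fractions, with replicate 3 highest. Across the array 6.5% of probe sets had fractions without overlap, 3.2% higher and 3.3% lower. The means were 2.59 ± 0.28 and 1.92 ± 0.23 (SD, n = 5 each), the difference was 0.67 ± 0.14 (SE), and the pairs differed by 0.42 to 0.89.

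IGF2R, on Ssc.15818.1.S1_at, was dim. It read 0.62, 0.88, 0.93, 0.92 and 1.13 in the positive and 0.57, 0.64, 0.56, 0.85 and 0.64 in the negative arrays. Every pair was higher in the positive fraction, but replicates 1 and 4 by only 0.04 and 0.07, and the fractions overlapped. The means of 0.90 ± 0.18 and 0.65 ± 0.12 (SD, n = 5 each) differed by 0.25 ± 0.09 (SE), which did not pass. All 10 values were above background, though by less than 1 log2 unit.

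IL6, on Ssc.62.2.S1_a_at, was the gene that read lower throughout. The positive arrays gave 1.85, 1.72, 1.97, 1.60 and 1.71 and the negative arrays 2.32, 1.96, 2.50, 2.56 and 2.24. The fractions met at a single point, with positive replicate 3 at 1.97 and negative replicate 2 at 1.96. The means were 1.77 ± 0.14 and 2.32 ± 0.24 (SD, n = 5 each), the difference was -0.55 ± 0.11 (SE), and the pairs differed by -0.25 to -0.96, most in replicate 4. The spread of IL6 among negative arrays was the wider by SD, as for the brighter probe sets of FGF2 and FGF7, which was not tested.

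The order of the differences was IGFBP5, FGF2, IGF2R, FGF7 and IL6 from highest to lowest. The first 2 lay within their SE of each other, as did the lower 2 within the sum of theirs. Levels of different genes are not set against each other, since probe sets differ in how strongly they bind.

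The differences responded unequally to the poly-A level. With it as a covariate, IGFBP5 read 0.21 ± 0.22 in place of 0.67, and FGF7 0.01 ± 0.24 in place of -0.34, whereas IL6 read -0.98 ± 0.16 and FGF2 0.89 ± 0.32 (SE). In limma 0 of the 7 probe sets then passed, where 12 of all probe sets did. Before adjustment 2 of the 7 were under 0.05, where 14.6% of all genes were. With the replicate block beside the covariate the values were 0.18 ± 0.23 for IGFBP5, -0.96 ± 0.28 for IL6 and 0.64 ± 0.27 for FGF2 (SE). FGF7 read -0.28 ± 0.42 and IGF2R -0.12 ± 0.24 (SE), the last with its direction turned. Here 0 of the 7 passed, where 4 of all probe sets did, and the same 2 were under 0.05 before adjustment. The poly-A levels of the fractions do not overlap, so group and poly-A level cannot be told apart.

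**Figure D2:**
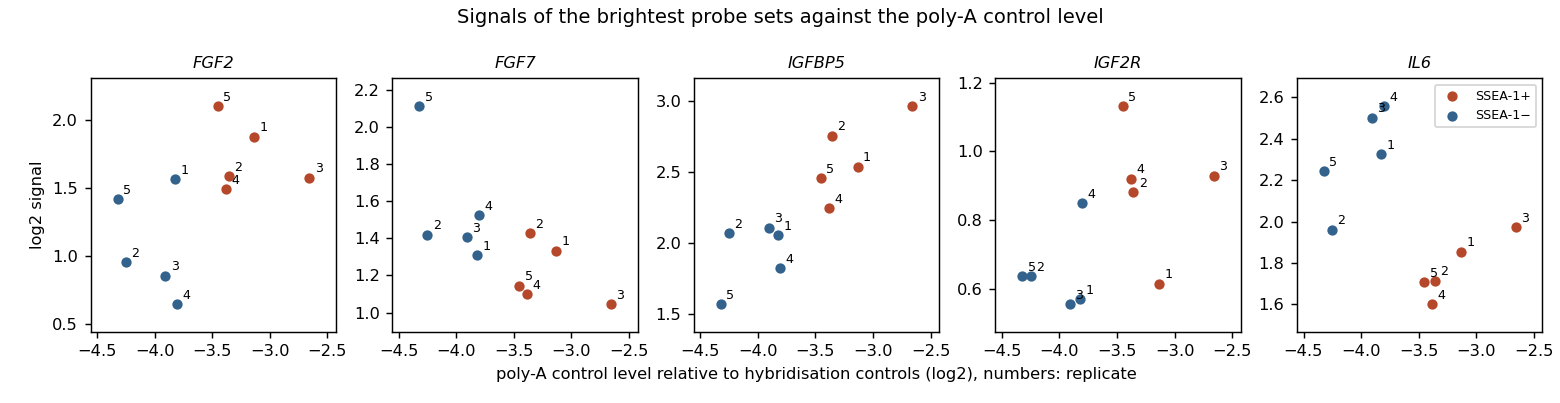
Log2 signal of the brightest probe set of each gene (y axis) against the poly-A control level relative to the hybridisation controls on the same array (x axis, log2), red for SSEA-1 positive and blue for negative arrays, numbered by replicate. For IGFBP5 the positive array with the highest poly-A level (replicate 3, 2.96) and the negative array with the lowest (replicate 5, 1.57) are also its extremes, while IL6 in positive replicate 3 (1.97) is the highest of its fraction although the fraction as a whole is lower. Other IGFBP5 arrays go against that order. Negative replicate 4, with the highest poly-A level of its fraction, reads 1.82, under negative replicate 2 at 2.07. Positive replicate 5, with the lowest level of its fraction, reads 2.46, above positive replicate 4 at 2.25. The relation was not tested.

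The calls of the members also differed in how they held when arrays were left out. Those of IGFBP5 and IL6 held without any single array, with IGFBP5 between 0.57 and 0.75 and IL6 between -0.49 and -0.64, and ended without both arrays of replicate 1 (0.71 and -0.57) or of replicate 5 (0.61 and -0.55). That of FGF2 ended in 7 of 10 single leave-outs, without positive replicate 1, 2, 3 or 5 or negative replicate 2, 3 or 4. It also ended without any of the 5 pairs, while the FGF2 difference stayed between 0.53 and 0.76. These leave-outs were fitted without the replicate block. On all arrays the FGF2 call held with the block, at an SE of 0.083 in place of 0.17. Leave-outs with the block were not run, so how the 3 calls compare in a paired fit was not tested. Repeated quantile normalization and cyclic loess left the 3 calls in place, with IGFBP5 at 0.69 and 0.68, FGF2 at 0.65 and 0.64 and IL6 at -0.55 and -0.53.

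**Figure D3:**
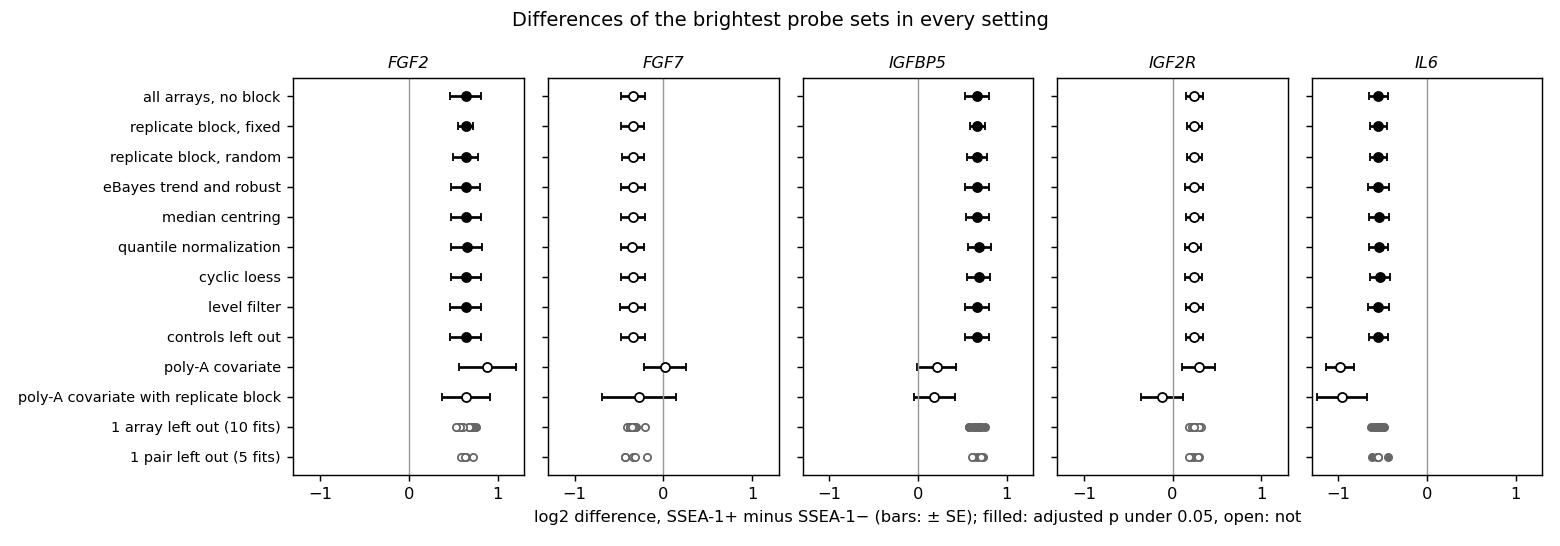
Difference between fractions (x axis, log2, SSEA-1 positive minus negative) of the brightest probe set of each gene in 11 fits (rows, bars ± SE) and with arrays or pairs left out (grey points), filled where the adjusted p was under 0.05. IGFBP5, FGF2 and IL6 are filled in the upper 9 rows and open in both rows with the poly-A covariate. In those 2 rows IGFBP5 moves towards 0 and IL6 away from it, while FGF2 reads 0.89 and, with the block, 0.64.

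The rest of the pathways was read from 12 lists of other genes, 222 in all besides the 5 described, of which 106 were measured, each on its brightest probe set. In limma 7 of the 106, or 6.60%, passed the threshold, against 7.39% of all 6765 genes, a share near the background. All 7 were higher, at a background of 3.21% higher and 4.18% lower, and the median difference of the 106 genes was 0.05 against -0.01 over all genes. EGR1, IGF2 and TGFB2 passed on a probe set other than their brightest and are not in that count; they are named below for that reason, after their values were seen. With the replicate block 13 of the 106 passed, 10 higher and 3 lower, where 14.3% of all genes did, 5.65% higher and 8.62% lower. With the poly-A covariate 0 of the 106 passed, where 0.0887% of all genes did, 0.0591% higher and 0.0296% lower. Before adjustment 20 of the 106 were under 0.05 in that fit, where 14.6% of all genes were. In the main limma fit 23 of the 106 were under 0.05 before adjustment, where 23.8% of all genes were. That last share is the background for the unadjusted counts of single lists, and nothing is read from those counts.

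Other ligands and receptors of the FGF family gave no call. Of 5 other FGF ligands none passed and 1 had an unadjusted p under 0.05. FGF9, a mesenchymal and epithelial growth factor, read 0.48 ± 0.08 against 0.26 ± 0.20 and FGF12, an intracellular FGF homologue, 0.83 ± 0.28 against 0.59 ± 0.09 (SD, n = 5 each). FGF13, another intracellular homologue, differed by -0.26 at an adjusted p of 0.612 in limma and at 0.0460 with the replicate block, and it was lower in 5 of 5 pairs. Of 7 receptors, co-receptors and binding proteins none passed and none had an unadjusted p under 0.05. FGFR1, a main FGF receptor of fibroblasts, read 3.94 ± 0.05 against 3.77 ± 0.18, FGFR2, the receptor gene that FGF7 acts on, 3.41 ± 0.15 against 3.53 ± 0.14, and the heparan sulfate co-receptor SDC1 4.29 ± 0.27 against 4.01 ± 0.19 (SD, n = 5 each). SDC1 passed with the replicate block, at 0.0251.

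Below the FGF receptors, 2 of 8 adaptors and kinases of the ERK pathway rose and none fell. GRB2, the adaptor that links receptors to SOS and RAS, rose by 0.70 ± 0.10 (SE, limma adjusted p = 0.00164), from 5.50 ± 0.18 to 6.19 ± 0.14 (SD, n = 5 each), in 5 of 5 pairs and without overlap. Its second brightest probe set read 3.76 against 3.97, a difference of -0.22 at an adjusted p of 0.295, so the rise of GRB2 belongs to 1 probe set. ARAF, a RAF kinase, rose by 0.42 ± 0.08 (SE, limma adjusted p = 0.00762) in 5 of 5 pairs. FRS2, the docking protein of FGF receptors, and MAP2K2, which activates ERK, read 0.25 and 0.19 higher without passing, at adjusted p = 0.201 and 0.139.

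Among 9 feedback and target genes of ERK signalling 1 passed on its brightest probe set: DUSP7, a phosphatase that removes phosphate from ERK, rose by 0.33 ± 0.07 (SE, limma adjusted p = 0.0189), in 5 of 5 pairs; its call ended without both arrays of replicate 1, 2, 3 or 5, at 0.31 to 0.36. DUSP6, the feedback phosphatase of FGF signalling, read 5.92 ± 0.28 against 6.17 ± 0.28, ETV5, a transcription factor induced by FGFs, 2.76 ± 0.09 against 2.62 ± 0.09, and the immediate-early gene IER3 6.52 ± 0.28 against 6.39 ± 0.41 (SD, n = 5 each). None of these 3 passed, with adjusted p from 0.305 to 0.775 in limma. The immediate-early transcription factor EGR1 read 7.53 against 7.35 on its brightest probe set, at an adjusted p of 0.799. Its second brightest rose by 0.77 ± 0.21 (SE, limma adjusted p = 0.0438), from 4.22 to 4.98, and its dimmest differed by 0.92 ± 0.32 (SE) at 0.115.

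The rest of the IGF axis gave no call on the brightest probe sets. Of 6 other ligands, receptors and substrates none passed so and 1 had an unadjusted p under 0.05. IGF2, the ligand that IGF2R takes up and IGFBP5 binds, had 13 probe sets, and the brightest read 2.98 against 2.97. A dimmer one rose by 0.59 ± 0.13 (SE, limma adjusted p = 0.0207), from 0.83 to 1.42, while the other 12 differed by -0.13 to 0.23 without passing. GRB10, an adaptor that restrains insulin and IGF receptors, read 5.64 ± 0.08 against 5.46 ± 0.09, and the receptor IGF1R 2.24 ± 0.24 against 2.27 ± 0.12 (SD, n = 5 each), with 0.35 ± 0.16 (SE) on its second probe set. INSR was near background, at 0.36 against 0.47, and IRS1 was below it on all 10 arrays. Of 8 other binding proteins and proteases none passed and none had an unadjusted p under 0.05. IGFBP2 read 6.01 ± 0.16 against 5.81 ± 0.19 and was higher in 5 of 5 pairs, while IGFBP6, which prefers IGF2, read 5.26 ± 0.16 against 5.47 ± 0.18 and was lower in 5 of 5 pairs, with -0.28 on its other probe set. HTRA1, a secreted protease that can cut IGFBPs, read 8.78 ± 0.12 against 8.96 ± 0.13 (SD, n = 5 each). The difference of IGFBP5 was thus not accompanied by a call in another measured binding protein, but IGFBP3, IGFBP4 and IGFBP7 were not measured. Whether the IGFBP5 difference differs from those of the measured binding proteins was not tested.

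Of 8 genes of the PI3K, AKT and mTOR branch below the IGF receptor, 2 rose and the remaining 6 did not pass. FOXO1, a transcription factor that AKT keeps out of the nucleus, rose by 0.63 ± 0.10 (SE, limma adjusted p = 0.00445), from 3.88 ± 0.23 to 4.51 ± 0.10 (SD, n = 5 each), while a dim second probe set read 0.09 against 0.21. AKT2, a kinase of insulin signalling, rose by 0.57 ± 0.11 (SE, limma adjusted p = 0.00810) and lost its call without both arrays of replicate 3, at 0.56, or of replicate 5, at 0.58. TSC2, a brake on mTOR, read 1.26 against 0.97, and RHEB, which activates mTOR, 5.17 against 4.97, at adjusted p = 0.189 and 0.226.

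Beside IGF2R, 1 of 13 genes of mannose 6-phosphate sorting rose. AP1M1, a subunit of the AP-1 clathrin adaptor, rose by 0.28 ± 0.07 (SE, limma adjusted p = 0.0459) and lost its call in 9 of 10 single leave-outs, all but that of negative replicate 1, with values from 0.24 to 0.34 over all leave-outs. The call of AP1M1 also ended without any of the 5 pairs, with eBayes trend and robust settings, quantile normalization and cyclic loess. It ended in both fits with the poly-A covariate too. M6PR, the cation-dependent mannose 6-phosphate receptor, read 5.86 ± 0.08 against 5.71 ± 0.08 and AP1S1, another AP-1 subunit, 1.95 ± 0.07 against 1.76 ± 0.11 (SD, n = 5 each), both higher in 5 of 5 pairs without passing, at adjusted p = 0.229 and 0.150. GGA1, a Golgi adaptor, read 2.74 against 2.60.

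Near IL6 few genes of its family were measured. Of IL6R, IL11RA and LIF none passed and none had an unadjusted p under 0.05; IL6R was above background on 1 array, LIF on 4 and IL11RA on all 10, at 4.80 ± 0.11 against 4.85 ± 0.09 (SD, n = 5 each). Of 10 genes of JAK and STAT3 signalling and its targets 1 rose. CEBPD, a C/EBP factor that STAT3 and inflammation induce, rose by 0.35 ± 0.07 (SE, limma adjusted p = 0.0153), in 5 of 5 pairs and thus opposite to IL6, but its second brightest probe set read 5.67 against 5.66, and the call ended without both arrays of replicate 1, 3 or 5, at 0.31 to 0.39 over all leave-outs. STAT3 itself read 5.07 ± 0.08 against 4.91 ± 0.08 and JAK2 2.31 ± 0.13 against 2.61 ± 0.26 (SD, n = 5 each), neither past the threshold, and JAK2 passed with the replicate block, at 0.0463.

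Of 17 secreted inflammatory factors and NF-kB regulators 0 passed in limma, with 3 under 0.05 before adjustment. CCL2, a monocyte chemokine, read 6.73 ± 0.47 against 6.22 ± 0.40 (SD, n = 5 each) and was higher in 5 of 5 pairs; its adjusted p was 0.205, and 0.00227 with the replicate block. The adhesion receptor ICAM1, another NF-kB target, read 5.78 ± 0.04 against 5.52 ± 0.14 (SD, n = 5 each) without overlap, at an adjusted p of 0.0628 and of 0.0442 with the block. The colony-stimulating factor CSF2 was below background on all 10 arrays, and CSF3 read 0.56 against 0.42. Of 12 other growth factors and receptors of fibroblasts none passed on its brightest probe set and 2 had an unadjusted p under 0.05, with CYR61, a matricellular protein, at 9.16 against 9.38, VEGFA at 6.05 against 6.30, and TGFB3, a TGF-beta ligand, at a difference of 0.26. TGFB2, another TGF-beta ligand, differed by 0.17 ± 0.17 (SE) on its brightest of 4 probe sets by mean level, whereas its second brightest rose by 0.63 ± 0.17 (SE, limma adjusted p = 0.0467), from 3.77 to 4.40, and the other two differed by 0.12 and 0.41 without passing. AREG, an EGF receptor ligand, read 1.52 against 1.91, lower in 5 of 5 pairs, and passed with the block, at 0.0153.

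**Figure D4:**
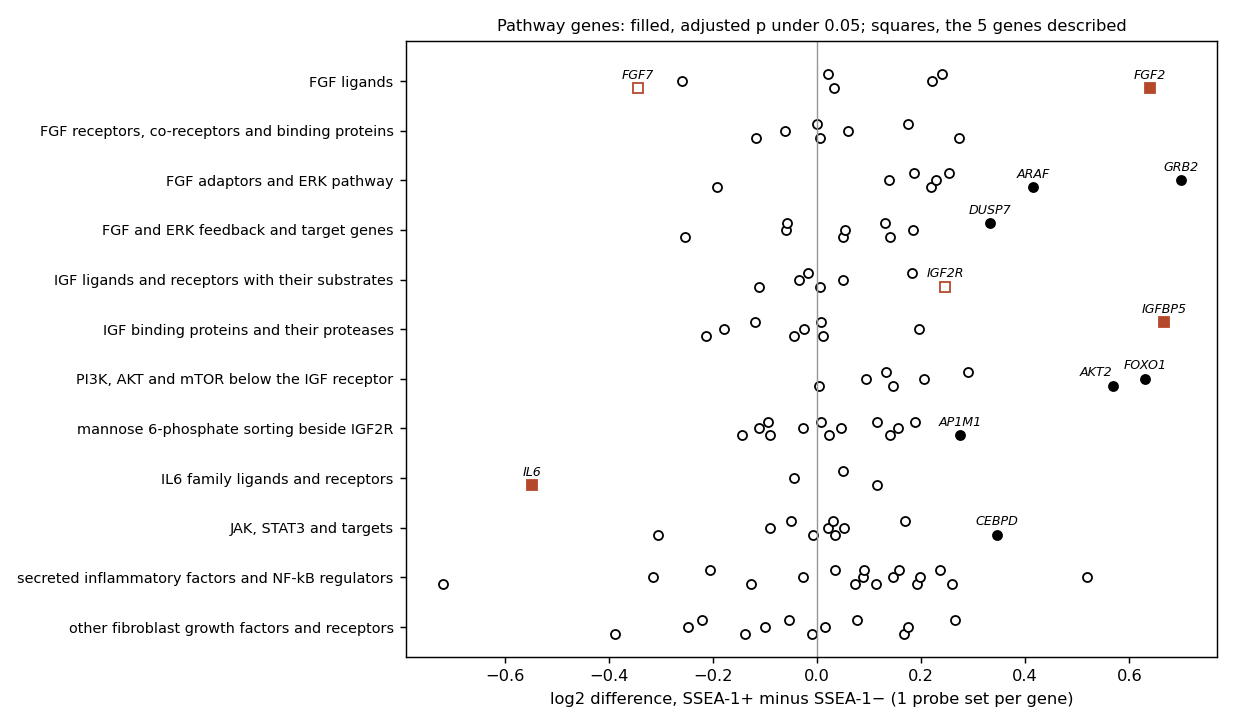
Difference between fractions (x axis, log2, SSEA-1 positive minus negative) of each measured gene in the 12 pathway lists (rows), filled where limma's adjusted p was under 0.05; red squares are the 5 genes described and circles the others. The 7 filled circles, GRB2, ARAF, DUSP7, FOXO1, AKT2, AP1M1 and CEBPD, all lie to the right of 0.

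The genes most like each of the 5 were looked for in the part of the values that the fractions do not set, the deviations of the 10 arrays from their fraction means, over 5028 candidate genes above background on all arrays. Genes with placeholder or serial symbols, such as LOC, orf, KIAA, FAM, TMEM and CCDC names, were left out of the candidates. Same-numbered arrays deviated together, so these Pearson correlations describe 10 arrays that are not independent. For FGF2 they were PPARG, the nuclear receptor of fat cell formation (r = 0.96), NUCKS1, a chromatin-associated phosphoprotein (0.93), and DPF2, a subunit of BAF chromatin remodelling complexes (0.92). For IGFBP5 they were PTGFRN, a membrane partner of the prostaglandin F receptor (0.96), TNFAIP1 (0.96) and ESYT1, a tether of the ER to the plasma membrane (0.93). For IL6 they were TEX10 (0.98), TIMM10, a chaperone of mitochondrial import (0.98), and ZUFSP, a deubiquitinase (0.95).

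For FGF7 the nearest were AKIRIN1 (0.90), the Golgi SNARE protein BET1 (0.84) and ZNF34 (0.82), and for IGF2R the galactose enzyme GALT (0.96), the transcription factor BCL11A (0.91) and the platelet integrin chain ITGA2B (0.90). With so many candidates high values are plentiful: the 100th gene still reached 0.77 for FGF2, 0.82 for IGFBP5, 0.83 for IL6, 0.61 for FGF7 and 0.65 for IGF2R. Genes alike within fractions could differ between them in other ways: GALT differed by -0.20 where IGF2R differed by 0.25, and PPARG differed by 0.07 where FGF2 differed by 0.64. The other 2 neighbours of FGF2 rose as it did, NUCKS1 by 0.32 ± 0.07 and DPF2 by 0.44 ± 0.11 (SE, limma adjusted p = 0.0178 and 0.0373). TEX10, the nearest gene of IL6, fell by 0.38 ± 0.10 (SE, limma adjusted p = 0.0434). The other neighbours of IL6, TIMM10 and ZUFSP, differed by -0.05 and -0.26 without passing (limma adjusted p = 0.842 and 0.183). PTGFRN, TNFAIP1 and ESYT1, the neighbours of IGFBP5, differed by 0.06, 0.12 and 0.23, also without passing.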

How the data were processed

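Gene expression was measured on 10 Affymetrix porcine arrays. Each deposited column holds 1 array's log2 signals, which come from RMA according to the submitters' processing notes. Its version is not given in the sources used here. No further normalization was applied, and arrays have no read depth: their number limits precision. Probe sets were named through the platform annotation, where 10099 had 1 symbol, 198 several and 13826 none; 9989 matched a RefSeq gene table of Sscrofa11.1 by identifier, used for names only. Genome positions and probe sequences were not used here. Groups and replicate numbers came from the sample titles.

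Fractions were compared with limma 3.58.1 in R 4.3.3 (lmFit, eBayes) on all 24123 probe sets, 188 controls included, with Benjamini-Hochberg adjustment and a threshold of 0.05. Each gene was represented by its brightest probe set, by mean over the 10 arrays. For array measures all 252 assignments were permuted exactly, two-sided. The members and gene lists were chosen with earlier results of these data known. Of each list, passing genes and up to 4 with the smallest p were selected, and not all of these are named in the text. For each member the 3 candidate genes most correlated within fractions were named.

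The main limma fit and the leave-outs had no replicate block. Every SE, adjusted p and call is from an unpaired fit unless the block is named. The replicate numbers were treated as pairs in the pair differences and the block alone, since the series text speaks of 5 replicates that gave 5 positive and 5 negative fractions. Deviations of same-numbered arrays also correlated, at 0.212, 0.580, 0.353, 0.122 and 0.235, each over 0.1. Arrays of replicates 4 and 5 correlated better, up to 0.314, with another number. The procedure was tested on simulated data for this comparison over 24123 probe sets, where 77% of 1.5-fold and 95% of 2-fold changes were recovered and 14 unchanged probe sets were called. The simulated arrays were independent, without shared deviations by replicate number or a poly-A difference. Changes were set only in probe sets with a mean above background. Recovery for arrays that deviate together or for dimmer probe sets was not tested. Alternatives were the replicate block (fixed or random), eBayes with trend and robust settings, median centring, quantile normalization, cyclic loess, a level filter, leaving out controls, the poly-A level as covariate with and without the block, thresholds of 0.01 and 0.1, averaging a gene's probe sets, and omitting arrays or pairs.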

Additional observations from a re-analysis of the deposited data

Results flagged for a closer look

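Single arrays stood apart from the other 4 of their fraction in 8 of 108 groups of values tested by Dixon's criterion. These were 2 for each of 54 probe sets, those of the members and of the selected list genes, and chance flags about 1 in 20. Of the genes described, FGF7 stood at 2.11 in negative replicate 5 against 1.31 to 1.52 in the other negative arrays, and IGF2R at 0.85 in negative replicate 4 against 0.56 to 0.64. Among pathway genes GRB2 was at 5.94 in positive replicate 2 against 6.25 to 6.27, IER3 at 6.04 in positive replicate 3 against 6.57 to 6.77, and M6PR at 5.72 in positive replicate 3 against 5.87 to 5.92. AP1M1 was at 1.34 in negative replicate 1 against 1.11 to 1.16. IL6R at 0.22 in negative replicate 4 against 0.09 to 0.11 and CSF3 at 0.51 in negative replicate 5 against 0.37 to 0.40 are at or near background.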

How the results depend on the processing

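Over all probe sets 1495 passed. The count was 2832 with the replicate number as a fixed block and 2561 as a random one, 12 with the poly-A covariate, 4 with that covariate and the replicate block, and 400 and 2430 at thresholds of 0.01 and 0.1. Without single arrays it ran from 836 to 1834, and without pairs from 384 to 1407. Quantile normalization turned the balance from 656 higher and 839 lower to 784 and 688, and cyclic loess to 791 and 709. Of the 7 probe sets of FGF2, FGF7, IGFBP5, IGF2R and IL6, 3 passed, and 3 with the replicate block; 0 passed in limma with the poly-A covariate, with or without the block (2 at an unadjusted p under 0.05 in each), 0 at a threshold of 0.01, 2 to 3 without single arrays and 0 to 2 without pairs. All 3 ended without replicate 1 (5 at an unadjusted p under 0.05) and without replicate 5 (3 at an unadjusted p under 0.05), where 4 against 4 arrays remained. Among 106 pathway genes 7 passed, 13 with the replicate block, 4 at a threshold of 0.01 and 4 with the mean of a gene's probe sets. Without single arrays 6 to 7 passed, and without pairs 3 to 9. In limma 0 passed with the poly-A covariate, with 20 under 0.05 before adjustment, where 14.6% of all genes were. With covariate and replicate block 0 passed in limma, with 12 under 0.05 before adjustment. The 54 probe sets of the members and of the selected list genes gave 1344 values under these alternatives. Of these values 1269 kept their side of the threshold, 62 lost a call, 13 gained one and none with a call changed sign. The poly-A level difference of 0.82 was recomputed in the leave-outs alone. Signals within about 1 log2 unit of background limit what can be seen. Such signals include IGF2R, the dimmer FGF2 probe set, negative replicates 2, 3 and 4 of the brighter one, and most positive arrays of FGF7.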
